A study of Homo sapiens with 12 samples.

Results

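The response of TC71-RRM1-KO cells to 48 h without doxycycline was taken from 6 of the 12 RNA-seq libraries in the series, 3 labelled 0 h and 3 labelled 48 h, chosen by line and time. TC71 is an established Ewing sarcoma cell line. In these cells the endogenous RRM1 gene was cut with CRISPR/Cas9, and RRM1 protein came from a codon-optimized transgene under a doxycycline-inducible promoter. The 0 h cells had doxycycline, and the 48 h cells had been without it for 48 h. The knockout, the transgene and the growth medium (DMEM with FBS) were common to both groups. The other 6 libraries are the same design in a second Ewing sarcoma line, EW8-RRM1-KO, and enter here where the TC71 response was set against it and in the estimate of the spread. The knockout lines were cloned from single cells, and no source used here says how many clones gave these libraries. Removal of the drug, loss of RRM1 protein and time in culture cannot be told apart in this comparison. No source used here says whether replicates were separate cultures, and the p-values measure the spread between these libraries.

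RRM1 is the large subunit of ribonucleotide reductase, which turns ribonucleotides into the deoxyribonucleotides used to copy DNA. RRM2 is the small subunit made for S phase, and RRM2B is its alternative outside S phase. Genes needed to enter and complete S phase are transcribed mainly under E2F factors, which are held back by RB family proteins until cyclin-dependent kinases act. Genes for mitosis peak later, and many carry the cell cycle genes homology region (CHR) in their promoters.

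Promoters are shown here for 3 S phase genes that rose and hold an E2F motif (EXO1, DTL and CDC6), and for CDC20, the most abundant gene called down, with its CHR motif. The windows are from RefSeq on GRCh38.p14, 300 bases each from 250 before to 50 after the annotated start, read 5′ to 3′ on the gene's strand. Capitals mark motif matches on either strand.
EXO1 (chr1:241847954-241848253, + strand): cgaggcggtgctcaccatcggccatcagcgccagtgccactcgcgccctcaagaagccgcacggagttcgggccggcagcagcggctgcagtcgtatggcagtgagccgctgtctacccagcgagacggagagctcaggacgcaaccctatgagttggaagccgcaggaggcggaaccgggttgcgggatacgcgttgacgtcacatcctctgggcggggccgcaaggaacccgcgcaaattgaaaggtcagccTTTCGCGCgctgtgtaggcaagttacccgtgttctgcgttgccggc
DTL (chr1:212035498-212035797, + strand): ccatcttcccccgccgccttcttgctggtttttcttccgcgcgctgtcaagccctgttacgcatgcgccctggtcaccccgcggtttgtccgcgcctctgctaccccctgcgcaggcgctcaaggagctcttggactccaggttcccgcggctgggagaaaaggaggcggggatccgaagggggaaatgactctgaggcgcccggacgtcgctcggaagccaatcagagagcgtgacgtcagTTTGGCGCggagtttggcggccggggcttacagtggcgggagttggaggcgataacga
CDC6 (chr17:40287629-40287928, + strand): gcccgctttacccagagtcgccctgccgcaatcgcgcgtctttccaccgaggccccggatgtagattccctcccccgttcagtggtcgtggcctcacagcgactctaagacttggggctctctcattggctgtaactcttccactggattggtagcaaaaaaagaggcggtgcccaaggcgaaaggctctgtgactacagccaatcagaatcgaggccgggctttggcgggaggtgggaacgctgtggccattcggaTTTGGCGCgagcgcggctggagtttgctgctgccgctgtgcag
CDC20 (chr1:43358731-43359030, + strand): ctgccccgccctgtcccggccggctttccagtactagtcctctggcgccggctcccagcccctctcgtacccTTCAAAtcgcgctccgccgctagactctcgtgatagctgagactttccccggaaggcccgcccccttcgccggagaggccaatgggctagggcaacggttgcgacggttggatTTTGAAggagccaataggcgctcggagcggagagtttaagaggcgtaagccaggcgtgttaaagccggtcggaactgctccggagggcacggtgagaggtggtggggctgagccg

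The E2F letters searched were TTTCCCGC, TTTGGCGC, TTTCGCGC and TTTGCCGC, the CHR letters were TTTGAA, and both strands were read. A promoter window was matched by symbol for 10922 of the 16515 genes tested, taking the first one listed. An E2F match was in the windows of 15 of 32 S phase genes (46.9%), against 5.23% of all windows. Among the S phase genes that rose in TC71 it was in 13 of 27 (48.1%), and among the members that did not rise in 2 of 5 (40%). RRM2, which had one of the largest rises of the list, had no match in its window. A CHR match was in 31 of 45 windows of genes of the G2/M list (68.9%), against 9.97% of all windows. E2F and CHR matches overlapped in 0 windows, but the letters searched cannot share bases on either strand, so nothing is read from this. Among called genes with a window, 11 of 342 that were up (3.22%) and 1 of 57 that were down (1.75%) held an E2F match. A CHR match was in 10 of 57 windows of genes called down (17.5%) and in 46 of 342 of genes called up (13.5%). A match of the AP-1 letters TGACTCA was in 28 of 342 windows of genes called up (8.19%, against 3.15% of all windows). It was in 1 of 57 windows of genes called down (1.75%) and in 1 of 41 of the immediate early genes described below (2.44%). These are matches of letters and not sites shown to be bound.

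The deposited table holds whole-number counts for 20771 genes. The TC71 libraries summed to 20053075 to 26468122 counts at 0 h and to 24841757 to 30818358 at 48 h, and no 2 libraries of a group agreed within counting noise. Levels are given below as CPM, the usual scaling of counts by library size, corrected by TMM factors (trimmed means of log ratios between libraries). The test was the quasi-likelihood test of edgeR over all 16515 genes with enough counts, p was adjusted by the method of Benjamini and Hochberg over those genes, and fold changes are 48 h over 0 h, given on the log2 scale with their standard error (SE). "Rose" and "fell" mean an adjusted p under 0.05, and "called" means in addition a fold above 2. Ewing sarcoma markers were present in all libraries (10 of 10 tested), with a summed level of 2757 to 2799 CPM at 0 h and 2777 to 2853 CPM at 48 h. Of these 10, 4 rose and 5 fell (against 22.9% and 19.2% of all genes), so the sum does not show that each was unchanged. Of 7 leukocyte markers 3 were in the table, with a summed level of 0.343 to 0.559 CPM at 0 h and 0.557 to 0.573 CPM at 48 h, and 2 of 6 epithelial markers summed to 0.894 to 1.77 CPM and 1.73 to 2.16 CPM. A single endothelial marker of 5, CDH5, was in the table, at no more than 6 counts in any TC71 library. In bulk RNA, a change in the number of cells of a kind and a change in the RNA per cell cannot be told apart. The share of counts on the mitochondrial genome was 3.96% to 4.81% at 0 h, and 3.65%, 3.66% and 2.43% in 48 h replicates 1, 2 and 3, so that replicate 3 stood apart.

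RRM1 (chromosome 11, 4094707 to 4138932, GENCODE 44 on hg38), the gene targeted by the knockout, was at 15.7, 15.5 and 17.3 CPM at 0 h and 25.7, 26.4 and 24.1 CPM at 48 h. The 48 h libraries were higher without overlap, with a change of 0.65 on the log2 scale (SE 0.07, adjusted p = 2.91e-09). These counts are of reads mapped to the endogenous sequence, the transgene is codon optimized, and RRM1-AS1, transcribed from the opposite strand, shares exonic sequence with RRM1, so they do not check the removal of the transgene. RRM2 (chromosome 2, 10120698 to 10211725) was at 391.6, 406 and 388 CPM at 0 h and 759, 797 and 801 CPM at 48 h. It rose without overlap, with a change of 0.99 on the log2 scale (SE 0.04, adjusted p = 7.15e-21), just under the fold that a call required. RRM2B was at 45.2, 47.6 and 47.3 CPM at 0 h and 47.8, 51.6 and 50.9 CPM at 48 h, with a log2 fold change of 0.10 and an adjusted p of 0.143. With scaling to total counts alone RRM2B passed the threshold (0.15, adjusted p = 0.0251).

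Over all genes, 539 were called up (3.26% of those tested) and 141 were called down (0.854%). Most of the response was smaller than the fold threshold. At the adjusted p alone 3776 genes rose (22.9%) and 3179 fell (19.2%), and the fold was under 1.5 for 2560 of the former and 2717 of the latter. The median log2 fold change was 0.40 among genes that rose and -0.26 among those that fell. A fold of 4 was passed by 113 genes called up and 8 called down. Of the genes called up, 51 had no more than 3 counts in any 0 h library, where the fold has no firm size. Among all genes tested, the 48 h libraries were all higher for 25.9% and all lower for 23.7%. Among the called genes this was so for 524 of 539 and 128 of 141. These genes were called from the same libraries, so this follows from the choice and adds no support.

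**Figure D1:**
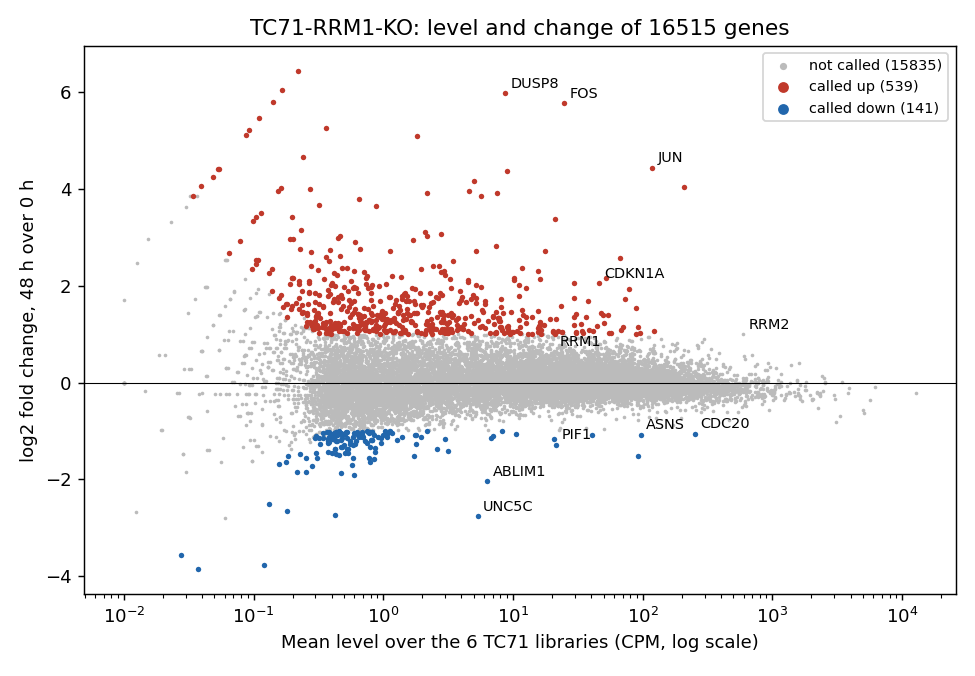
Mean level over the 6 TC71 libraries (CPM, log scale) against the log2 fold change at 48 h over 0 h for the 16515 genes tested, each point a gene, with 539 called up in red and 141 called down in blue. Genes called down lie mostly at the low end of the scale, and RRM2 lies just under the fold threshold at a high level.

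S phase genes rose as a group in TC71, nearly all by less than 2-fold. The list was the 43 S phase genes widely used to score single cells, of which 42 were tested (UHRF1 was not analysed here). Of these, 36 rose (85.7%, against 22.9% of all genes tested), 3 fell and 3 did not pass the test. The median log2 fold change was 0.40, against -0.001 for all genes, and with each 48 h library taken alone it was 0.36, 0.43 and 0.40. The 48 h libraries lay wholly above those of 0 h for 36 of the 42, against 25.9% of all genes.

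CCNE2, the cyclin E that starts S phase with its kinase, was the only member past a fold of 2. It was at 26.7, 27.4 and 28.6 CPM at 0 h and 56.8, 64.6 and 64.8 CPM at 48 h, with a change of 1.17 on the log2 scale (SE 0.06, adjusted p = 1.71e-17). The groups did not overlap. EXO1, a 5′ exonuclease of mismatch and break repair whose promoter is shown above, was at 79.1, 74.9 and 75.7 CPM at 0 h and 138, 155 and 151 CPM at 48 h, with a change of 0.95 on the log2 scale (SE 0.05, adjusted p = 1.59e-17). E2F8, an E2F that represses S phase genes late in S phase, was at 25.6, 27.3 and 28.7 CPM at 0 h and 43.9, 48.3 and 54 CPM at 48 h and DTL, the adaptor that targets CDT1 for destruction, was at 138, 138 and 140 CPM at 0 h and 218, 231 and 233 CPM at 48 h. Their log2 fold changes were 0.84 (adjusted p = 1.13e-11) and 0.71 (adjusted p = 7.12e-16). CDC6, which loads the replicative helicase, had 87.6, 87.1 and 89.9 CPM at 0 h and 134, 137 and 134 CPM at 48 h, with a change of 0.62 on the log2 scale (SE 0.04, adjusted p = 3.20e-13). In all of these genes every 48 h library was above every 0 h library.

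PCNA, the sliding clamp of DNA polymerases, was at 363, 363 and 369 CPM at 0 h and 463, 473 and 481 CPM at 48 h, with a change of 0.37 on the log2 scale (SE 0.04, adjusted p = 4.66e-10). The groups were apart although the change was under 1.5-fold. Subunits of the replicative helicase were uneven: the log2 fold change was 0.38 for MCM4 (adjusted p = 7.76e-11) and 0.16 for MCM7 (adjusted p = 5.49e-04), but 0.11 for MCM5 (adjusted p = 0.127) and -0.05 for MCM6 (adjusted p = 0.333), which did not pass. MCM6 was at 278, 277 and 279 CPM at 0 h and 265, 270 and 272 CPM at 48 h, and its value turned to 0.00 with scaling to total counts alone. MCM5 passed when either 0 h replicate 2 (0.17, adjusted p = 0.0132) or 48 h replicate 2 (0.16, adjusted p = 0.0145) was left out. The histone chaperone NASP was the other member that did not pass (-0.07, adjusted p = 0.152), and it passed as a fall without 48 h replicate 2 (-0.10, adjusted p = 0.0429). UNG, the uracil DNA glycosylase, had the smallest rise (0.11, adjusted p = 0.0239), which did not pass when 0 h replicate 1 (adjusted p = 0.0749), 0 h replicate 3 (0.0722) or 48 h replicate 3 (0.151) was left out. The members that fell were POLR1B, a subunit of RNA polymerase I (-0.36, adjusted p = 2.72e-08), MRPL36 of the mitochondrial ribosome (-0.21, adjusted p = 0.00547) and CDCA7, a partner of the chromatin remodeller HELLS (-0.19, adjusted p = 0.00236). Without 48 h replicate 3, CDCA7 did not pass (-0.13, adjusted p = 0.0514).

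**Figure D2:**
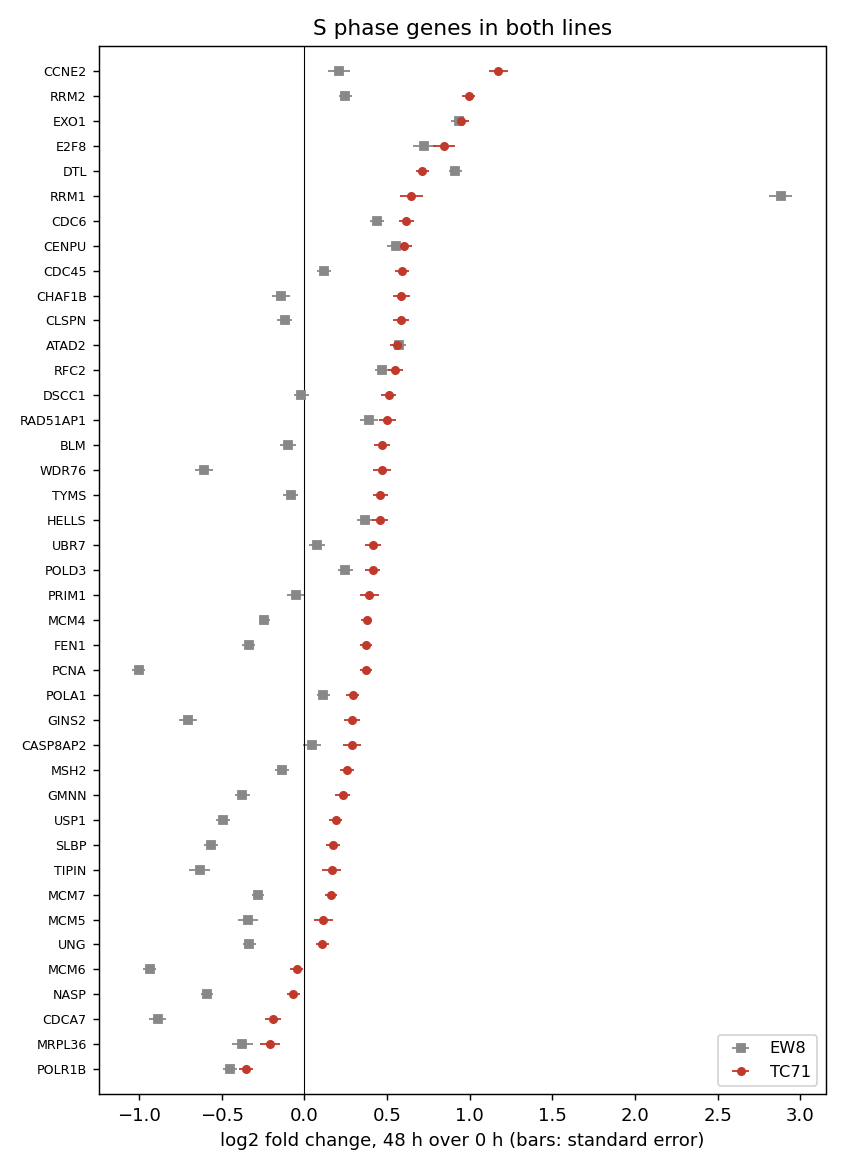
Fitted log2 fold change at 48 h over 0 h of 41 of the 42 S phase genes tested, with bars of 1 standard error, in TC71 (red circles) and EW8 (grey squares). Of all 42, 36 rose and 3 fell in TC71, and for 31 of the 42 the TC71 value was higher than that of EW8 at an adjusted p under 0.05.

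The same genes gave a different picture in EW8, where 15 rose (against 37.0% of all genes tested), 21 fell (against 31.6%) and the median log2 fold change was -0.11. Tested as a difference of the responses, TC71 was higher for 31 of the 42 and lower for 2, against 22.4% and 25.7% of all genes tested. PCNA differed most among those higher in TC71, with 0.37 in TC71 and -1.003 in EW8 (difference 1.38, adjusted p = 1.04e-19). WDR76, a WD repeat protein linked to DNA damage, was the other member past a 2-fold difference, with 0.47 and -0.61 (difference 1.07, adjusted p = 1.25e-13). GINS2, part of the replicative helicase (0.29 and -0.71, difference 0.99, adjusted p = 5.43e-13), was just under it. In 15 genes a rise in TC71 stood beside a fall in EW8. The members lower in TC71 were RRM1 (difference -2.23, adjusted p = 3.06e-18) and DTL (-0.20, adjusted p = 0.00458). With each of the 12 libraries left out in turn, 29 to 33 members were higher in TC71.

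Genes of origin licensing and the replication fork followed the S phase list, with which this list shares members. Of 55 tested, 44 rose (80.0%, against 22.9% of all genes), 2 fell (3.64%, against 19.2%) and the median log2 fold change was 0.33. CDT1, which loads the replicative helicase together with CDC6, was the only one called, at 63.1, 68.1 and 56.4 CPM at 0 h and 133, 111 and 136 CPM at 48 h (1.02, adjusted p = 5.60e-09). Its fold was under 2 without 0 h replicate 3, 48 h replicate 1 or 48 h replicate 3, where the lowest log2 value was 0.95. POLA2, a subunit of the primase complex, had a change of 0.62 on the log2 scale (SE 0.04, adjusted p = 2.81e-13). The genes that fell were DBF4, the activator of the CDC7 kinase (-0.28, adjusted p = 9.74e-05), and ORC4 of the origin recognition complex (-0.24, adjusted p = 2.87e-04).

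Of 24 genes of deoxynucleotide synthesis, 12 rose (50%, against 22.9% of all genes), 4 fell (16.7%, against 19.2%, so that falls were no more frequent than among all genes) and the median log2 fold change was 0.14. After RRM2, the largest rises were those of the salvage enzymes CDA (0.91, adjusted p = 1.81e-06) and TK1. TK1, the thymidine kinase of S phase, was at 197, 221 and 191 CPM at 0 h and 337, 305 and 352 CPM at 48 h, with a change of 0.71 on the log2 scale (SE 0.06, adjusted p = 1.99e-08). The falls were in the nucleoside diphosphate kinases NME1 (-0.31, adjusted p = 1.18e-05) and NME2 (-0.98, adjusted p = 0.00146), which both share exons with the readthrough gene NME1-NME2, in the nucleotidase NT5C (-0.21, adjusted p = 0.0141) and in the deoxyguanosine kinase DGUOK (-0.14, adjusted p = 0.0376). NT5C did not pass without 0 h replicate 2 (-0.15, adjusted p = 0.114) or 48 h replicate 2 (-0.18, adjusted p = 0.0501) or with scaling to total counts alone (-0.16, adjusted p = 0.0701), and under each of these 2 members of the list fell.

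Replication histone genes did not rise with the S phase list. Their transcripts normally lack a poly(A) tail, the libraries were made from poly(A) RNA, and 15 of 51 had enough counts to be tested. Of these, 6 fell (40.0%, against 19.2% of all genes) and 9 did not pass, with a median log2 fold change of -0.36. H1-2, a linker histone, was at 30.0, 32.2 and 28.5 CPM at 0 h and 17.3, 13.3 and 15.5 CPM at 48 h, with a change of -0.97 on the log2 scale (SE 0.08, adjusted p = 2.80e-12), and the groups did not overlap. H2BC12, a core histone, was at 90.7, 86.6 and 89 CPM at 0 h and 55.1, 51.2 and 55.6 CPM at 48 h, with a change of -0.72 on the log2 scale (SE 0.05, adjusted p = 1.04e-13). H4C8 had a log2 fold change of -0.59 (adjusted p = 2.21e-04), against 0.60 in EW8 (difference -1.19, adjusted p = 7.07e-06). With scaling to total counts alone, 1 member rose and 5 fell, and without 48 h replicate 1 the same numbers were found.

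Regulators of the G1 to S transition that rose included both a cyclin and inhibitors. Of 28 tested, 17 rose (60.7%, against 22.9% of all genes), 3 fell (10.7%, against 19.2%) and 4 were called up (against 3.26%). CDKN1A, the CDK inhibitor p21, was at 18.7, 16.6 and 18 CPM at 0 h and 70.3, 67.4 and 83.3 CPM at 48 h, with a change of 2.05 on the log2 scale (SE 0.07, adjusted p = 1.31e-18). E2F7, a repressive E2F, was at 31, 29.1 and 30.9 CPM at 0 h and 70.8, 70.4 and 72.3 CPM at 48 h, with a change of 1.23 on the log2 scale (SE 0.05, adjusted p = 4.21e-20). In both genes the groups did not overlap. The CDK4 and CDK6 inhibitor CDKN2B was also called (1.58, adjusted p = 1.33e-04), from levels under 1 CPM at 0 h, and CCNE2 completes the 4. The falls were in E2F5 (-0.32), E2F4 (-0.19) and WEE1, the kinase that holds CDK1 inactive (-0.28).

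Among 49 checkpoint and fork protection genes, 25 rose (51.0%, against 22.9% of all genes) and 5 fell (10.2%, against 19.2%), with a median log2 fold change of 0.14. Besides EXO1, the largest rises were BRCA1 (0.74, adjusted p = 1.03e-13) and BRIP1, the helicase that binds it (0.65, adjusted p = 7.66e-12). RAD17, which loads the checkpoint clamp (-0.32), the Fanconi anaemia gene FANCE (-0.27) and ETAA1, an activator of ATR (-0.23), had the largest of the few falls. With scaling to total counts alone, or without 48 h replicate 1, 3 genes fell in place of 5.

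Genes of the G2/M list fell more often than they rose. Of 54 tested, 13 rose (24.1%, against 22.9% of all genes), 22 fell (40.7%, against 19.2%), 2 were called down (against 0.854%) and the median log2 fold change was -0.05. CDC20 (chromosome 1, 43358981 to 43363203), the activator of the anaphase-promoting complex whose promoter is shown above, was at 336, 363 and 331 CPM at 0 h and 171, 157 and 168 CPM at 48 h. It fell without overlap, with a change of -1.06 on the log2 scale (SE 0.04, adjusted p = 2.00e-20). PSRC1, a spindle protein, was the other called down, at 52.9, 57.6 and 53.9 CPM at 0 h and 26.1, 25.8 and 25.9 CPM at 48 h (-1.08, adjusted p = 4.47e-17). CDCA3, a trigger of mitotic entry, had the next largest fall (-0.50, adjusted p = 1.75e-07). The largest rises were CDC25C, the phosphatase that activates CDK1 (0.41, adjusted p = 6.40e-05), the kinesin KIF2C (0.40, adjusted p = 8.16e-10) and HJURP, the chaperone of centromeric histone (0.36, adjusted p = 6.86e-08). PTTG1 (securin), which is not a member of this list, fell from 29.6, 28.9 and 27.2 CPM to 12.7, 13.3 and 12.4 CPM, with a change of -1.16 on the log2 scale (SE 0.07, adjusted p = 1.22e-14).

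**Figure D3:**
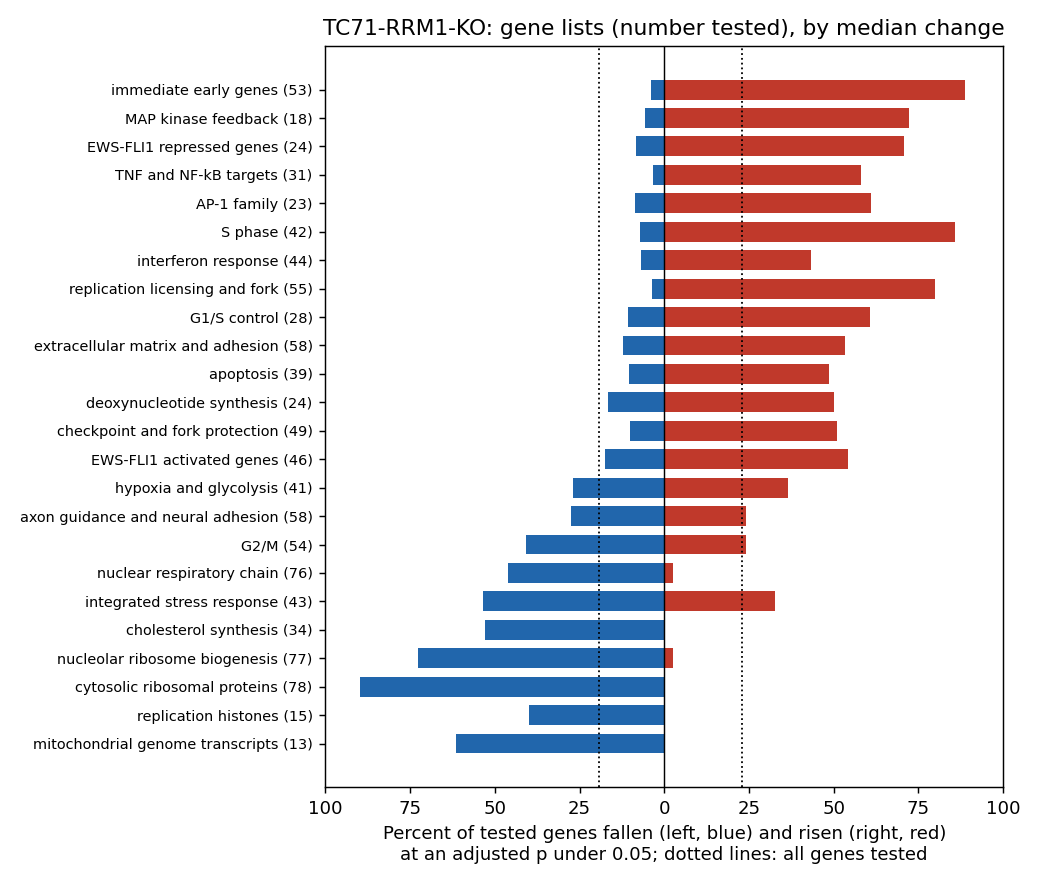
Percent of the tested genes of each list that rose (red, right) or fell (blue, left) in TC71 at an adjusted p under 0.05, ordered by the median log2 fold change, with the number tested in brackets and dotted lines at 22.9% and 19.2% for all genes. S phase (36 of 42) and fork genes (44 of 55) are mostly red, and ribosomal protein (70 of 78) and nucleolar genes (56 of 77) mostly blue.

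Genes that were called down were mostly of low abundance. Of the 141, 125 (88.7%) averaged under 50 counts per TC71 library, against 25.6% of all genes tested and 58.6% of the genes called up. Only 12 averaged at least 100 counts. Of the 130 in GENCODE 44, 61 were protein coding (46.9%, against 75.9% of those called up and 80.4% of all tested). A further 36 were lncRNA, against 86 of the 523 called up in GENCODE 44. Pseudogenes made up 25, against 1338 of the 15991 tested in GENCODE 44. The last 7 named here were snoRNA, of 36 snoRNA tested, where 0.854% of all genes tested were called down. For 6 of the 141 no 48 h library held more than 3 counts, and no size of fall is firm at such levels. With a mean of at least 1 CPM required, 40 genes were called down and 323 up.

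Of the 12 falls that averaged at least 100 counts, UNC5C and ABLIM1 were the largest, and both belong to the list of axon guidance. UNC5C (chromosome 4, 95162504 to 95549206), a netrin receptor, was at 9.09, 9.91 and 9.10 CPM at 0 h and 0.992, 1.16 and 1.89 CPM at 48 h. It fell with a change of -2.76 on the log2 scale (SE 0.15, adjusted p = 1.66e-16), and 48 h replicate 3 kept the highest level of the 3. ABLIM1, an actin-binding protein of axon guidance, was at 10.4, 9.86 and 10.4 CPM at 0 h and 2.37, 2.87 and 2.23 CPM at 48 h, with a change of -2.04 on the log2 scale (SE 0.10, adjusted p = 2.26e-17). EPHA7, an ephrin receptor, was at 3.95, 4.76 and 3.64 CPM at 0 h and 2.06, 1.86 and 1.55 CPM at 48 h, with a change of -1.17 on the log2 scale (SE 0.14, adjusted p = 4.70e-08). The groups did not overlap in any of these genes, which was a condition for naming them among the largest falls. The list of axon guidance and neural adhesion did not move one way, since of 58 genes tested 14 rose (24.1%, against 22.9% of all genes), 16 fell (27.6%, against 19.2%), 2 were called up (against 3.26%) and 3 down (against 0.854%). Exons of UNC5C overlap those of UNC5C-AS1 on the other strand.

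ASNS, asparagine synthetase, was at 135, 126 and 132 CPM at 0 h and 59.4, 66.1 and 60.2 CPM at 48 h, with a change of -1.08 on the log2 scale (SE 0.05, adjusted p = 1.37e-19). PIF1, a helicase of telomeres and forks, was at 28.1, 29.6 and 33.1 CPM at 0 h and 13.6, 12.9 and 11 CPM at 48 h, with a change of -1.29 on the log2 scale (SE 0.08, adjusted p = 6.49e-15). All 48 h libraries of these genes were below all 0 h libraries, which was again a condition of their choice. MIR17HG, the host transcript of the miR-17 cluster, was at 8.04, 8.53 and 11.3 CPM at 0 h and 4.77, 4.77 and 3.28 CPM at 48 h, with a change of -1.14 on the log2 scale (SE 0.14, adjusted p = 5.64e-07).

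**Figure D4:**
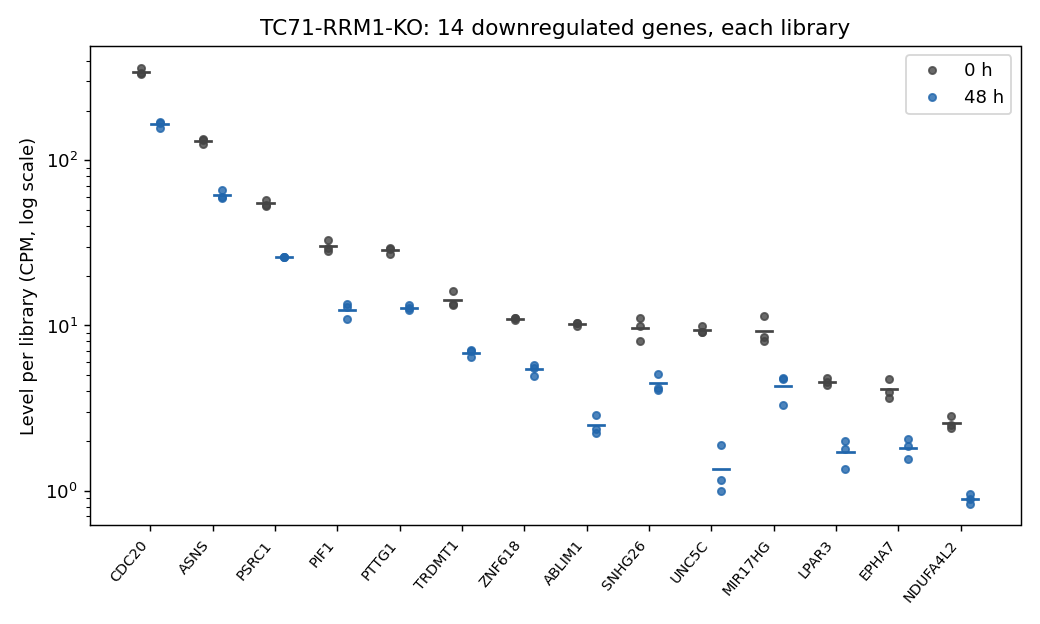
Level in each library (CPM, log scale) of 14 genes called down in TC71, points for the 3 libraries at 0 h (grey) and 48 h (blue) and short lines for their means. In every gene shown the points of the groups are apart, from CDC20 (331 CPM or more at 0 h) to NDUFA4L2 (0.954 CPM or less at 48 h). For most of them this was a condition of their choice.

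Further falls named by size follow. NDUFA4L2, a mitochondrial protein induced by hypoxia, was at 2.38, 2.50 and 2.81 CPM at 0 h and 0.954, 0.895 and 0.835 CPM at 48 h (-1.52, adjusted p = 9.37e-08), and its exons overlap those of SHMT2 on the other strand. LPAR3, a receptor for lysophosphatidic acid (-1.41, adjusted p = 7.71e-10), the H/ACA snoRNA SNORA73B (-1.37, adjusted p = 1.51e-07) and IGFBP5, which binds insulin-like growth factors (-1.27, adjusted p = 1.85e-05), followed. Below them were the adhesion protein IGSF9 (-1.18), the lncRNA AC010761.1 (-1.13), the hedgehog co-receptor CDON (-1.13), the snoRNA host SNHG26 (-1.11), ADM5 (-1.08), the transporter SLC22A23 (-1.08), TRDMT1, which methylates transfer RNA (-1.06), and the zinc finger gene ZNF618 (-1.01). The calls of MIR17HG, SNHG26, TRDMT1, ZNF618, IGSF9, ADM5, SLC22A23 and AC010761.1 were each lost without a single library. Without 0 h replicate 3, MIR17HG, SNHG26, TRDMT1 and SLC22A23 were under the fold threshold, without 48 h replicate 3 MIR17HG, SLC22A23, IGSF9 and AC010761.1 were, without 48 h replicate 2 ADM5 and ZNF618 were, and without 0 h replicate 1 ZNF618 was. ZNF618 was also under it with scaling to total counts alone. Their log2 fold changes were then between -0.894 and -0.997.

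Below the fold threshold, most genes of some lists of abundant transcripts fell. Cytosolic ribosomal protein genes fell in 70 of 78 (89.7%, against 19.2% of all genes) and the other 8 did not pass, with a median log2 fold change of -0.24. RPL38, one of the large subunit proteins, was at 349, 350 and 336 CPM at 0 h and 250, 253 and 250 CPM at 48 h, without overlap. Nucleolar ribosome biogenesis genes fell in 56 of 77 (72.7%) and rose in 2 (median -0.20), with 6 risen under scaling to total counts alone and 1 without 0 h replicate 2, 48 h replicate 2 or 48 h replicate 3 or with DESeq2. NPM1, the nucleolar chaperone, had a change of -0.56 on the log2 scale (SE 0.04, adjusted p = 9.87e-14), and NOP16 was the lowest of this group (-0.57). MYC, which drives ribosome production, was at 469, 478 and 453 CPM at 0 h and 456, 424 and 475 CPM at 48 h, with overlapping groups (-0.05, adjusted p = 0.356), and at 0.00 with scaling to total counts alone.

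Nuclear genes of the respiratory chain fell in 35 of 76 (46.1%, against 19.2% of all genes) and rose in 2 (median -0.12). NDUFV2, at under 1 CPM, was the member called down (-1.03, adjusted p = 0.0259), and among abundant members UQCRFS1 of complex III (-0.41) and COX7C of complex IV (-0.39) had the largest falls. With scaling to total counts alone 20 fell and 4 rose, and with each TC71 library left out in turn 24 to 31 fell and 1 to 5 rose (5 without 48 h replicate 2). Transcripts of the mitochondrial genome fell in 8 of 13 (61.5%, against the same 19.2%, median -0.53), and MT-ATP6 was at 3799, 3710 and 4389 CPM at 0 h and 2555, 2591 and 1626 CPM at 48 h. Here 48 h replicate 3 was lowest, and without it 9 of 13 fell but the median was -0.38. Without 0 h replicate 3, which was the highest, 4 of 13 fell, and with the TC71 libraries fitted alone 2 did. The list of cholesterol synthesis fell in 18 of 34 (52.9%, against 19.2%) and the others did not pass (median -0.18), with MSMO1 (-0.66), SCD (-0.58) and HMGCS1 (-0.52) lowest.

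The list of the integrated stress response fell more often than it rose. Of 43 tested, 14 rose (32.6%, against 22.9% of all genes), 23 fell (53.5%, against 19.2%) and the median log2 fold change was -0.18. Those called up included the transcription factors ATF3 (3.37, adjusted p = 1.30e-13) and DDIT3 (2.72, adjusted p = 1.49e-21). Those that fell included, after ASNS, the serine synthesis enzyme PSAT1 (-0.57, adjusted p = 7.11e-13) and methionyl-tRNA synthetase, MARS1 (-0.56, adjusted p = 1.71e-14). ATF4, the factor at the centre of this response, was at 411, 408 and 402 CPM at 0 h and 305, 294 and 314 CPM at 48 h, with a change of -0.42 on the log2 scale (SE 0.04, adjusted p = 9.25e-12).

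Among genes with at least 20 counts on average at 0 h, the largest rises were those of the immediate early genes FOS, JUN, EGR1 and EGR3, which encode factors made within minutes of a growth or stress signal. Of 53 immediate early genes tested, 47 rose (88.7%, against 22.9% of all genes), 2 fell and 34 were called up (against 3.26%), with a median log2 fold change of 1.48. FOS was at 0.819, 1.18 and 0.703 CPM at 0 h and 47.4, 43.9 and 54.1 CPM at 48 h, with a change of 5.77 on the log2 scale (SE 0.12, adjusted p = 1.24e-27). EGR3 was at 1.01, 0.736 and 1.03 CPM at 0 h and 13.1, 14.7 and 14.9 CPM at 48 h, with a change of 3.92 on the log2 scale (SE 0.14, adjusted p = 8.77e-22), and JUN (4.44) and EGR1 (4.03) also rose without overlap. DUSP6, a phosphatase that switches off ERK, was at 20.4, 17.6 and 19.3 CPM at 0 h and 106, 112 and 123 CPM at 48 h, with a change of 2.57 on the log2 scale (SE 0.07, adjusted p = 5.78e-22), and of 18 genes of MAP kinase feedback 13 rose (72.2%), 1 fell (2 without 48 h replicate 1) and 8 were called. DUSP8, a phosphatase of JNK and p38, had fewer counts at 0 h, at 0.186, 0.392 and 0.248 CPM at 0 h and 17, 14.8 and 19.2 CPM at 48 h (5.98, adjusted p = 1.38e-20). Further large rises were those of the TWEAK receptor TNFRSF12A (2.37), the neurotrophic factor GDNF (2.41), the sulfotransferase GAL3ST2 (2.51), the plasma glycoprotein APOH (2.71) and ZNF630 (2.82), whose exons overlap ZNF182.

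Other lists moved up in part. Over all genes tested 22.9% rose, 19.2% fell, 3.26% were called up and 0.854% called down. The AP-1 family rose in 14 of 23 (60.9%, 7 called) and fell in 2, which was 1 without 0 h replicate 2 or with scaling to total counts alone. TNF and NF-kB targets rose in 18 of 31 (58.1%, 7 called) and fell in 1. Apoptosis genes rose in 19 of 39 (48.7%, 3 called) and fell in 4, which was 2 without 0 h replicate 1, 0 h replicate 2 or 48 h replicate 1, with scaling to total counts alone, with no filter and with DESeq2. Interferon response genes rose in 19 of 44 (43.2%, 6 called) and fell in 3, of which 1 was called. Extracellular matrix and adhesion genes rose in 31 of 58 (53.4%, 10 called) and fell in 7 (4 without 0 h replicate 1), and 4 of the 5 fibroblast markers in the table (of 6) rose as well, from a summed level of 126 to 131 CPM at 0 h to 188 to 200 CPM at 48 h. The part of these markers in the rise of the matrix list was not tested. Genes repressed by EWS-FLI1, the fusion oncogene of this tumour, rose in 17 of 24 (70.8%, 10 called) and fell in 2 (median 0.80), while those it activates rose in 25 of 46 (54.3%, 4 called) and fell in 8 (17.4%, median 0.14), which was 5 without 0 h replicate 1 or 48 h replicate 1 and 4 with scaling to total counts alone. FLI1, whose 3′ part is in the fusion transcript, was at 103, 104 and 104 CPM at 0 h and 77.3, 79.6 and 77.3 CPM at 48 h (-0.41, adjusted p = 2.76e-09). The largest fall among the activated genes was that of the transcription factor BCL11B (-0.95, adjusted p = 2.98e-15), and SLFN11, a helicase that blocks stressed forks, had a log2 fold change of -0.14 (adjusted p = 0.00683). SLFN11 did not pass with scaling to total counts alone (-0.09, adjusted p = 0.0656) or without 48 h replicate 1 (-0.10, adjusted p = 0.0777). Hypoxia and glycolysis genes went both ways, with 15 of 41 risen (36.6%) and 11 fallen (26.8%), among them hexokinase HK2 (-0.49, adjusted p = 1.49e-10).

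Calls made in TC71 and not in the same direction in EW8 were a small part of the rises and most of the falls. They were 79 of 539 genes called up (14.7%) and 103 of 141 called down (73.0%). A missing call in EW8 is not a difference. Of the 79, 71 had the same sign in EW8 and 21 also rose there, and 32 averaged under 5 counts in both EW8 groups. Of the 103, 80 had the same sign and 19 also fell. The difference of the responses itself passed a fold of 2 and an adjusted p under 0.05 in the same direction for 7 of the 79 and 29 of the 103. Over all genes tested it did so for 0.981% in favour of TC71 and 7.28% against it, but the 79 and 103 were chosen by a call in 1 line and none in the other, which itself favours a difference, so nothing is read from these shares. Without TC71 48 h replicate 2 the former number was 11. Most were low, with 58 of the 79 and 96 of the 103 under 50 counts on average in TC71. Of the 7, 3 averaged at least 20 counts in the lower TC71 group, and of the 29, 5 did.

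**Figure D5:**
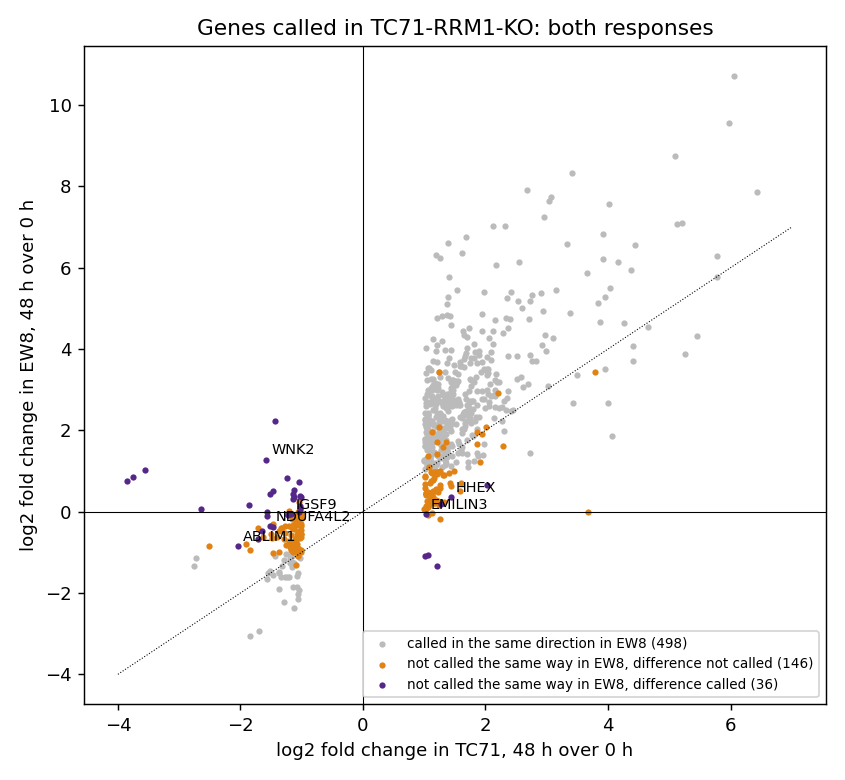
Fitted log2 fold change at 48 h over 0 h in TC71 (horizontal) and EW8 (vertical) for the 680 genes called in TC71, each point a gene and the dotted line equal values. The genes not called the same way in EW8 whose difference was called (36, purple) lie mostly on the side of the falls. Over all genes tested, called differences also leaned lower in TC71 (7.28%, against 0.981% higher), so nothing is read from this side.

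The genes called up with a called difference at 20 counts or more were EMILIN3, HHEX and ENSG00000196622. EMILIN3, a secreted matrix protein, was at 23.8, 25.3 and 20.2 CPM at 0 h and 49.2, 42.6 and 48.6 CPM at 48 h, with a change of 1.02 on the log2 scale (SE 0.07, adjusted p = 1.98e-13) in TC71, against -0.06 in EW8 (difference 1.09, adjusted p = 2.19e-09). Exons of EMILIN3 overlap those of LPIN3 on the other strand. Its fold in TC71 was under 2 without 0 h replicate 3, 48 h replicate 1 or 48 h replicate 3, at 0.94 or more on the log2 scale. HHEX, a homeobox repressor, was at 1.75, 2.06 and 1.61 CPM at 0 h and 4.81, 4.81 and 4.92 CPM at 48 h and rose by 1.43 on the log2 scale, against 0.35 in EW8 (difference 1.08, adjusted p = 3.64e-06). The gene ENSG00000196622, which has no symbol in the table, rose by 1.27 on the log2 scale, against 0.18 (difference 1.09, adjusted p = 5.19e-04).

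Among the falls with a called difference, ABLIM1 was the best measured, with -2.04 in TC71 and -0.84 in EW8 (difference -1.20, adjusted p = 4.82e-10). It also fell in EW8. NDUFA4L2 (-1.52 and -0.36, adjusted p of the difference 4.36e-04) and IGSF9 (-1.18 and -0.06, adjusted p 0.00322) did not pass the test in EW8. The others were ATF4P3, a processed pseudogene of ATF4 with which it may share reads (-1.02 and 0.08, adjusted p 0.00480) and the antisense RNA SLC25A21-AS1 (-1.04 and -0.01, adjusted p 0.0390). ATF4P3 was under the fold threshold in TC71 without 0 h replicate 2, 48 h replicate 1 or 48 h replicate 2 and with scaling to total counts alone, where its smallest change was -0.81. For SLC25A21-AS1 the adjusted p of the difference was above 0.05 with the Wald test of DESeq2 (0.0789) and when any of 7 libraries was left out, 4 of EW8 (0 h replicates 1 and 2, 48 h replicates 1 and 2) and 3 of TC71 (0 h replicates 2 and 3, 48 h replicate 3), with 0.0567 to 0.120. Its own fold in TC71 was under 2 without 0 h replicate 3 or 48 h replicate 3 and with scaling to total counts alone. UNC5C was called down in both lines, and its fall was larger in TC71 (difference -1.43, adjusted p = 1.37e-06).

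CCNE2, CDT1 and E2F7 were called in TC71 and also rose in EW8, under a fold of 2 there. CCNE2 had 1.17 in TC71 and 0.21 in EW8 (difference 0.96, adjusted p = 4.33e-11). CDT1 had 1.02 and 0.46 (difference 0.56, adjusted p = 2.95e-04). E2F7 had 1.23 and 0.98 (difference 0.25, adjusted p = 0.00237), close to the fold threshold in EW8. ASF1B, a histone chaperone of the fork, and TCF19, a gene of late G1, were picked after their values were seen. ASF1B was at 80.0, 83.8 and 74.9 CPM at 0 h and 163, 160 and 173 CPM at 48 h (1.06, against 0.10 in EW8, adjusted p of the difference 1.87e-13). TCF19 was at 60.0, 61.6 and 55.2 CPM at 0 h and 118, 114 and 124 CPM at 48 h (1.01, against 0.07, adjusted p of the difference 1.16e-12), and its fold was under 2 without 0 h replicate 3 or 48 h replicate 3 (0.96 or more on the log2 scale).

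Opposite calls were found for 3 genes, all down in TC71 and up in EW8 and all with few counts in at least 1 line. WNK2, a kinase of ion transport, had 34, 25 and 32 counts at 0 h and 9, 14 and 13 counts at 48 h in TC71, and in EW8 2, 3 and 5 counts at 0 h and 6, 9 and 5 counts at 48 h. ENSG00000198339 had 11, 11 and 17 counts at 0 h and 7, 6 and 4 counts at 48 h in TC71, and in EW8 1, 0 and 4 counts at 0 h and 9, 5 and 6 counts at 48 h, and its fall was not called without 0 h replicate 3 or 48 h replicate 3. RET, a receptor tyrosine kinase, had 2, 1 and 1 counts at 0 h and 0, 0 and 0 counts at 48 h in TC71, too few for a fold, and in EW8 130, 105 and 174 counts at 0 h and 237, 201 and 235 counts at 48 h. At the adjusted p alone, of 5731 genes past it in both lines 264 rose in TC71 and fell in EW8, and 201 did the reverse.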

How the data were processed

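RNA (RNeasy Plus Mini) was made into Illumina TruSeq Stranded mRNA libraries. Reads were checked with FastQC and mapped to hg38 with STAR, per the submitters' processing notes. The counting tool, its annotation and its use of strand are not given in the sources used here, so reads of overlapping genes may be shared. The authors deposited whole-number counts per gene and library, with no gene under 21 counts over the 12 libraries.

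Groups came from the sample labels. Counts of all 12 libraries were fitted with 4 groups in edgeR 4.0.16 (R 4.3.3, robust quasi-likelihood, TMM, filterByExpr with minimum count 10 and minimum total 15). The contrasts were TC71 48 h minus 0 h and its difference from the same contrast in EW8. The study used DESeq2, which is an alternative here (version 1.42.0). Alternatives also included limits on low counts, scalings, thresholds, a replicate block and each library left out. The fit was also run on simulated counts, whose outcome is not given here. Coordinates and biotypes are from GENCODE 44, and motifs were searched in the RefSeq promoter windows (GRCh38.p14).

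The members, gene lists and motifs were chosen with earlier results of these data known. Named genes were RRM1, RRM2, RRM2B, MYC, SLFN11, CDKN1A, JUN, FOS, EGR1 and the S phase list, the 12 largest rises and 20 largest falls called without overlap and with at least 20 counts on average in the lower group, up to 10 genes in each direction with a called difference under the same conditions, opposite calls, up to 3 rises and 3 falls per list, and the 10 most abundant falls. Other genes named were chosen after their values were seen. Some results under this rule are not reported here.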

Additional observations from a re-analysis of the deposited data

Results flagged for a closer look

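The response of TC71 differed from that of EW8 past a fold of 2 and an adjusted p under 0.05 of edgeR's test of the difference for the 27 genes below, all named above. Over all genes tested such a difference was found for 0.981% with the higher and 7.28% with the lower response in TC71. RET also passed, but no value is given for it, since TC71 held at most 2 counts per library. Values are TC71 minus EW8 on the log2 scale. DUSP8, which rose in both lines from few counts, passed as well (-3.58). The response was higher in TC71 for PCNA (1.38), WDR76 (1.07), TRDMT1 (1.09), EMILIN3 (1.09), HHEX (1.08) and ENSG00000196622 (1.09). TRDMT1 fell in both lines, and its positive difference marks a smaller fall in TC71. PCNA and WDR76 rose in TC71 and fell in EW8. Genes that fell in TC71 with a lower response than in EW8 were UNC5C (-1.43), ABLIM1 (-1.20), NDUFA4L2 (-1.16), IGSF9 (-1.12), ATF4P3 (-1.10) and SLC25A21-AS1 (-1.03). H4C8 fell in TC71 and rose in EW8, with a difference of -1.19. The differences of WNK2 (-2.86) and ENSG00000198339 (-3.66) rest on at most 9 counts per library in EW8, so that their sizes are not firm. Genes that rose in both lines and less in TC71 were CDKN1A (-1.35), JUN (-2.11), EGR1 (-1.46), CDKN2B (-2.0), EGR3 (-2.31), ATF3 (-1.52), DDIT3 (-2.46), APOH (-2.02), GAL3ST2 (-1.31), GDNF (-2.32) and TNFRSF12A (-1.47). In EW8 at 0 h, CDKN2B had 5, 6 and 11 counts, EGR3 10, 4 and 13, GDNF 11, 6 and 19 and GAL3ST2 16, 14 and 18. The sizes of their differences are less firm. RRM1 rose in both lines and less in TC71 (-2.23). With 3 libraries a group, no library was tested as standing apart.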

How the results depend on the processing

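Of 188 counts of calls and of S phase genes recomputed under the alternatives, 163 were within 1.5 times the value reported. The other 25 follow. With a mean of at least 1 CPM required, 323 genes were called up and 40 down, 31 and 26 of them not called in EW8, and the response differed for 4 and 11. With no filter on low counts, 128 and 160 were not called in EW8 and 13 of the former differed. With a fold of 1.2 inside the test (glmTreat) these numbers were 1492 and 512, 272 and 165, and 88 and 49, and with no fold threshold 3776 and 3179, 874 and 815, and 540 and 421. An adjusted p under 0.01 left 4 and 16 genes with a called difference, and the Wald test of DESeq2 left 4 up.

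With each library left out in turn, calls ranged from 525 to 545 up and from 109 to 187 down. Without 48 h replicate 3, 71 of the 141 falls were called again. Calls not made in EW8 ranged from 71 to 99 up and 76 to 141 down, and those with a called difference from 5 to 11 up and 22 to 43 down (11 without TC71 48 h replicate 2). S phase genes risen ranged from 34 to 36, fallen from 2 to 4, and higher in TC71 from 29 to 33.

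Replicate numbers were not taken to pair the samples, since libraries with the same number did not deviate together (correlations of -0.225, -0.431 and -0.301 in TC71). With 3 libraries a group this does not settle the pairing, which no source used here gives. With the replicate block, 507 genes were called up and 124 down, and 34 S phase genes rose. UNG did not pass (0.11, adjusted p = 0.0910), 23 nuclear respiratory chain genes fell and 1 rose, and 4 mitochondrial transcripts fell. With the block, 1 nucleolar ribosome biogenesis gene rose and 2 apoptosis genes fell. Scaling to total counts moved the median of all genes to 0.049 (log2) and the share of rises among calls from 79.3% to 84.7%. It turned MYC and MCM6 from -0.05 to 0.004. The median of the axon guidance list was -0.088 to 0 with single libraries left out, at 0 without 48 h replicate 2. Of 1509 fold changes of named genes recomputed, 1490 kept direction and side of the threshold, 13 lost it and 4 gained it. The cause of these changes was not tested. Most falls have under 50 counts, which limits the size that can be given for them.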
